A study of Mus musculus with 2 samples.

Results

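The 10 genes described here encode proteins that hold endothelial cells together or join their cytoplasm: *Cdh5*, *Cldn5*, *Ocln*, *Tjp1*, *Esam* and *F11r* of adherens and tight junctions, and the connexins *Gja1*, *Gja4*, *Gja5* and *Gjc1* of gap junctions. They were found by their symbols in the gene table of each matrix, and all 10 were present among 33696 genes. Single-cell RNA sequencing with 3′ UMI (unique molecular identifier) counting was performed on the suprarenal abdominal aorta at day 28, with 1 library per condition. The Control library came from mice given normal saline. The AngII+HS library came from mice infused with AngII (angiotensin II, a vasoconstrictor peptide) by minipump for 28 days, with 0.9% NaCl and 0.2% KCl in the drinking water, a treatment that induces abdominal aortic aneurysm. All mice were male C57BL/6J mice, 5 months old by the study's methods. The design text states that tissue of 5 mice was pooled per library, whereas the protocol text names 1 control mouse and 2 treated mice, and neither the animals in a library nor their cells can be told apart. Since neither condition had a second library, the conditions could not be tested against each other. Levels are given below as CPM, the UMIs of a gene scaled to all UMIs of a cell class by the usual constant, with exact Poisson 95% intervals. Ratios are given as log2 of AngII+HS over Control, with exact 95% intervals from the split of the UMIs. All intervals cover counting error only, not the spread between mice. Those of levels and ratios treat each UMI as independent, so they also leave out the spread between cells.

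VE-cadherin, encoded by *Cdh5*, is the adhesion receptor of endothelial adherens junctions, and claudins, occludin and JAM-family proteins seal the tight junctions above it. Connexins assemble into hemichannels that dock between neighbouring cells, so that ions and small molecules pass directly. In arteries, connexin 37 (*Gja4*) and connexin 40 (*Gja5*) are the classical endothelial connexins, whereas connexin 43 (*Gja1*) and connexin 45 (*Gjc1*) are known from smooth muscle and other cells of the wall. A 3′ UMI count is not scaled to transcript length, so each gene was compared with itself across cells and libraries. Where shares of UMIs or highest counts are given over several genes, they are of UMIs as counted and not of transcript levels per length.

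The Control library held 11448 barcodes and 86618995 UMIs, and the AngII+HS library 24804 barcodes and 117146856 UMIs. After cell filters and doublet removal, 10269 Control and 19734 AngII+HS cells remained, with a median of 7274 and 3066 UMIs per cell. The libraries differed in makeup: vascular smooth muscle cells (VSMCs) were 40.4% of Control and 2.60% of AngII+HS cells, and neutrophils 0.964% and 23.6%. Each matrix was taken by the sample it is recorded under, whereas the barcode list recorded with each has the length of the other matrix and was not joined to it. A swap of the matrices themselves would turn every direction given here. The longer list shared 67 barcodes, 0.270% of its own, with the shorter one. Vascular endothelial cells (VECs) numbered 838 and 1203, and were divided by marker genes that include none of the 10 into arterial-like (486 and 387 cells), capillary-like (145 and 447) and venous-like cells (165 and 342), called arterial, capillary and venous below. Lymphatic endothelial cells (LECs) numbered 138 and 156, pericyte-like cells 182 and 214, and VSMCs 4148 and 513. Some subclusters met no name and were left out of these classes. Among VECs they held 11 and 27, and 31 and 0 cells, which stayed in the pooled VECs. Among VSMCs and pericyte-like cells they held 651 and 39, 8 and 43, and 32 and 16 cells. Whole clusters of the first clustering also met no name, with 610 and 281, 675 and 522, 40 and 2065, and 5 and 43 cells. T and B cells, which should lack most of these genes, served as the measure of free RNA (232 and 2109 cells, median depth 3788 and 2141 UMIs).

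The name "endothelial" held for some of the 10 genes and not for others. VECs and LECs together held 98.1% of the *Cdh5* UMIs in the Control and 95.4% in the AngII+HS library, 98.6% and 95.6% of the *Cldn5* UMIs, and 97.1% and 92.6% of the *Gja5* UMIs. For *Esam* the endothelial share was 69.7% and 84.1%, for *F11r* 56.1% and 53.2%, and for *Gja4* 38.5% and 46.7%. *Tjp1* (20.7% and 38.5%), *Gja1* (9.0% and 27.3%) and *Gjc1* (5.57% and 16.7%) lay mostly outside the endothelium, and the VSMC share of the *Gjc1* UMIs was 67.7% and 21.1%. *Ocln* gave few UMIs in all, 145 and 146, of which 91.0% and 58.9% were endothelial. Cells without a class name, including the unnamed VEC subclusters, held 19.3% and 9.90% of the *Gja1* UMIs. They also held 18.2% and 11.15% of the *Gjc1* and 17.5% and 8.385% of the *Tjp1* UMIs. These shares move with the number of cells of each class as well as with the level per class.

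**Figure D1:**
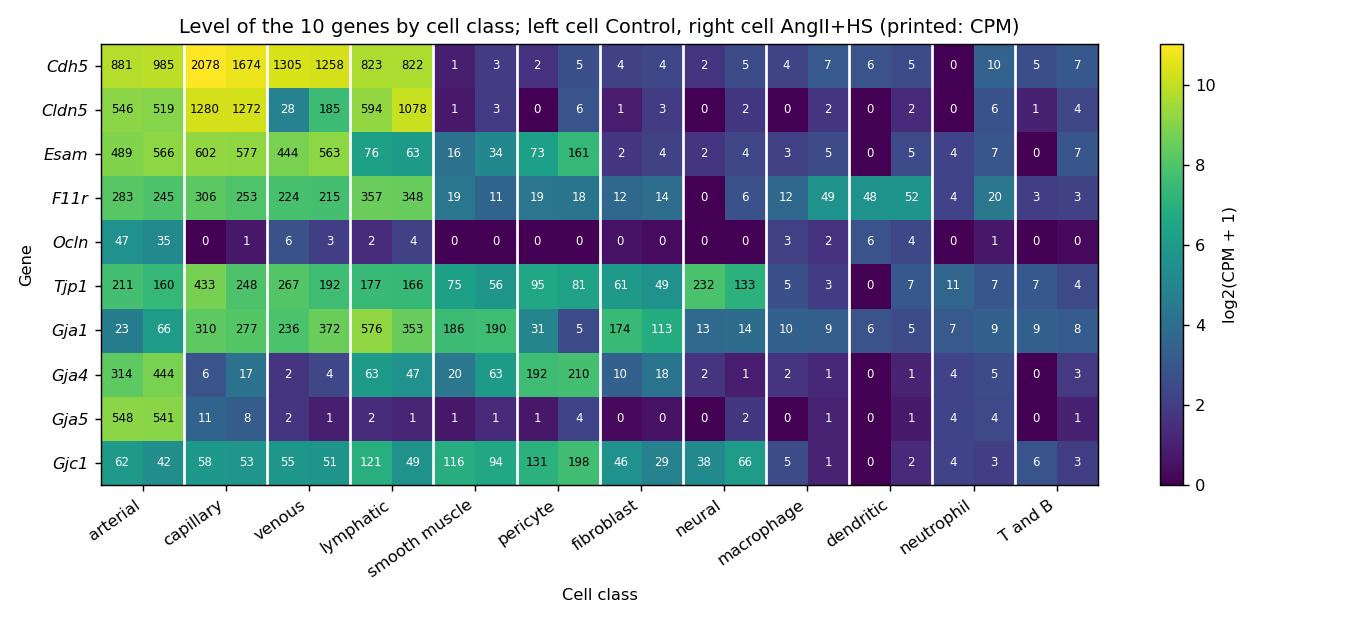
Level of each of the 10 genes (rows) in each cell class (columns), with the Control library in the left and the AngII+HS library in the right cell of each pair; colour shows log2(CPM + 1) and the printed number is CPM. *Cdh5* and *Cldn5* stand out in endothelial columns, *Gja5* is highest in the arterial column, and *Gja1*, *Tjp1* and *Gjc1* also in VSMCs and fibroblasts.

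*Cdh5* (ENSMUSG00000031871, GRCm39 chr8:104828231-104871143, plus strand) had the same order of levels in both libraries, from capillary to venous to arterial cells and then LECs. In capillary cells it stood at 2078 CPM (1969 to 2191) in the Control and 1674 CPM (1610 to 1739) in the AngII+HS library, a log2 ratio of -0.31 (-0.41 to -0.22). Venous cells gave 1305 and 1258 CPM (log2 ratio -0.05, -0.15 to 0.05), and arterial cells 881 and 985 CPM (0.16, 0.08 to 0.25). LECs were nearly level, at 823 CPM (773 to 875) and 822 CPM (762 to 885). In the Control library the intervals of arterial cells and LECs overlapped, and in the AngII+HS library they did not. No endothelial class passed a 1.5-fold difference for *Cdh5*, the size used below as the mark of a difference, since no test was possible. Outside the endothelium *Cdh5* was near the free RNA level, which in T and B cells was 5.19 and 7.32 CPM. In VSMCs its level was 0.922 and 2.90 CPM. A *Cdh5* UMI was found in 89.1% of Control and 93.5% of AngII+HS arterial cells and in 2.16% and 1.61% of T and B cells. With each cell thinned to 1000 UMIs, these shares were 53.0% and 59.4% in arterial cells and 0.437% and 0.787% in T and B cells.

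*Cldn5* (ENSMUSG00000041378, GRCm39 chr16:18595597-18597012, plus strand, a gene of 1 exon) encodes claudin-5, the main claudin of endothelial tight junctions. The 250 bases before its RefSeq start (GRCm38.p6, chr16:18776597-18776846, plus strand) are shown because among endothelial classes this gene differed most between libraries in venous cells and least in capillary cells. Matches to 5 short motifs were sought there on both strands and would be in capitals: a SOX core (ACAAT or ATTGT), an RBPJ core (TGGGAA or TTCCCA), an ETS core (GGAAG or CTTCC, which can share bases with the RBPJ core), a KLF core (CCACCC or GGGTGG) and TATAAA (or TTTATA). None of these letters occurred in the *Cldn5* window.

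Cldn5: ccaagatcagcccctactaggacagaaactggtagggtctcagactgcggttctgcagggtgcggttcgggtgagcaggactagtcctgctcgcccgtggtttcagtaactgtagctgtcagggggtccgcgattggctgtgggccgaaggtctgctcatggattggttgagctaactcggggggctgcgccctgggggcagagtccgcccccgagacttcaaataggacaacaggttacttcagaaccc

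Of 32851 windows of this length in the RefSeq table, 27.7% held the SOX core, 21.6% the RBPJ core, 64.1% the ETS core, 28.1% the KLF core and 12.4% the TATA letters. The *Cldn5* window had a GC content of 59.6%, against a median of 52.4% over all windows. The table held windows for 7 of the 10 genes.

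In venous cells *Cldn5* stood at 28.3 CPM (18.3 to 41.8, 25 UMIs) in the Control and 185 CPM (168 to 204, 415 UMIs) in the AngII+HS library. This 6.54-fold difference, a log2 ratio of 2.71 (2.13 to 3.35), was the largest among the 7 members with at least 50 UMIs in venous cells, and it came to 1.47 with cells thinned to 1000 UMIs. The level in venous cells stayed below that of the other endothelial classes in both libraries. Capillary cells were level, at 1280 CPM (1194 to 1369) and 1272 CPM (1217 to 1329), and arterial cells gave 546 and 519 CPM (-0.07, -0.19 to 0.04). The arterial subclusters differed, though none passed 1.5-fold. Cells led by *Klk10* gave 638 and 482 CPM (-0.40, -0.58 to -0.23) and those led by *Dkk2* 1009 and 1470 CPM (0.54, 0.34 to 0.74). Cells led by *Gadd45b* were level (269 and 262 CPM). In LECs *Cldn5* stood at 594 CPM (552 to 638) and 1078 CPM (1009 to 1150), 1.82-fold higher in the AngII+HS library. The LEC difference did not reach 1.5-fold when each cell was given equal weight (log2 ratio 0.51) or thinned to 1000 UMIs (0.42). The free RNA level in T and B cells was 1.04 and 4.15 CPM.

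Venous cells consisted of a subcluster led by *Csf3* and *Ackr1* (96 and 262 cells) and one led by *Adarb2* (69 and 80 cells), and the *Cldn5* difference lay in the first. There it stood at 14.7 CPM (6.73 to 27.95) and 202 CPM (183 to 223), whereas in the *Adarb2*-led cells it was 58.9 CPM (16 UMIs) and 14.7 CPM (3 UMIs). The name venous is less sure for the *Adarb2*-led cells. Their summed arterial markers (6539 and 4436 CPM) were above their summed venous markers (3647 and 3744 CPM), and none of their leading genes was a venous marker. The arterial sum is not particular to arterial cells, since VSMCs held 12200 and 28300 CPM of it. The *Ackr1*-led cells also differed in the markers of other subtypes: the summed level of the 7 capillary markers was 820 CPM in the Control and 1024 CPM in the AngII+HS library, and that of the 9 arterial markers 2771 and 1311 CPM. The capillary sum hides differences between its genes: over all venous cells *Cd36* stood at 814 and 512 CPM, whereas *Rgcc* stood at 24.9 and 245 CPM, *Car4* at 4.53 and 71.35 CPM and *Gpihbp1* at 17.0 and 69.1 CPM. The arterial sum does so as well. Over all venous cells *Mgp* (1834 and 795 CPM), *Bgn* (963 and 250 CPM), *Eln* (829 and 200 CPM), *Fn1* (172 and 121 CPM) and *Bmx* (37.4 and 7.58 CPM) were lower in the AngII+HS library. *Sox17* (20.4 and 87.4 CPM), *Hey1* (2.27 and 21.0 CPM), *Efnb2* (73.6 and 102 CPM) and *Sema3g* (0 and 10.3 CPM) were higher. In the AngII+HS library, 80.7% of 31 venous cells with a *Cldn5* UMI held a capillary marker UMI, against 49.2% of 295 venous cells without, at 1000 UMIs per cell. In the Control library the values were 42.9% of 7 cells and 52.9% of 157 cells. The part of cells with a capillary profile in the *Cldn5* difference was not tested.

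*Ocln* (ENSMUSG00000021638, GRCm39 chr13:100630334-100689535, minus strand) encodes occludin, a tight junction protein with many epithelial sites of expression. In these aortas it was an arterial gene among endothelial classes, at 47.3 CPM (39.4 to 56.4) and 35.4 CPM (27.8 to 44.3), a log2 ratio of -0.42 whose interval (-0.85 to 0.003) held 0. Control capillary cells held 0 UMIs, with an interval that reached 5.64 CPM, and AngII+HS capillary cells held 1 UMI. Venous cells held 5 and 7 UMIs, LECs 2 and 3, and VSMCs and pericytes none. Of the arterial subclusters, the cells led by *Klk10* gave 43.0 and 41.5 CPM, those led by *Gadd45b* 45.0 and 38.5 CPM, and those led by *Dkk2* 67.3 CPM (26 UMIs) and 6.82 CPM (2 UMIs).

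*Tjp1* (ENSMUSG00000030516, GRCm39 chr7:64945898-65177529, minus strand) encodes ZO-1, the scaffold that links junction proteins and connexins to actin. Its level was lower in the AngII+HS library in each of the classes named here. Capillary cells gave 433 CPM (384 to 486) and 248 CPM (223 to 274), 1.75-fold lower, and were the only VEC subtype past 1.5-fold. Arterial cells gave 211 and 160 CPM (log2 ratio -0.40, -0.60 to -0.21) and venous cells 267 and 192 CPM (-0.48, -0.71 to -0.24). Outside the vessels' lining, VSMCs stood at 74.8 and 55.9 CPM (-0.42, -0.60 to -0.24), fibroblasts at 60.7 and 48.6 CPM (-0.32, -0.47 to -0.17) and neural cells at 232 and 133 CPM (-0.80, -1.16 to -0.44). The intervals held 0 in LECs (177 and 167 CPM, -0.09), pericytes (94.9 and 81.1 CPM, -0.23) and macrophages (5.39 and 2.91 CPM, -0.89).

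*Esam* (ENSMUSG00000001946, GRCm39 chr9:37439344-37449615, plus strand) encodes an immunoglobulin-like adhesion molecule of endothelial junctions. Its levels in the 3 VEC subtypes were close together: 489 and 566 CPM in arterial, 602 and 577 CPM in capillary and 444 and 563 CPM in venous cells, and in the AngII+HS library the 3 intervals overlapped. The venous log2 ratio was 0.34 (0.18 to 0.51), the arterial one 0.21 (0.10 to 0.33) and the capillary one -0.06 (-0.23 to 0.11). LECs held less, 76.05 and 63.3 CPM. *F11r* (ENSMUSG00000038235, GRCm39 chr1:171265092-171292958, plus strand), which encodes JAM-A, was the opposite case, with its highest endothelial level in LECs at 357 CPM (324 to 392) and 348 CPM (310 to 390), although in the Control library the interval overlapped that of capillary cells. Arterial cells gave 283 and 245 CPM (-0.21, -0.37 to -0.05), capillary cells 306 and 253 CPM (-0.28, -0.53 to -0.02) and venous cells 224 and 215 CPM (-0.06, -0.30 to 0.19), and none of these passed 1.5-fold.

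Among the connexins, *Gja5* (ENSMUSG00000057123, GRCm39 chr3:96812009-96984732, plus strand) marked arterial cells and did not differ between libraries there, whereas *Gja4* (ENSMUSG00000050234, GRCm39 chr4:127205214-127207851, minus strand) was higher in the AngII+HS library. The windows before their RefSeq starts are shown beside each other because the pair shares arterial cells and parts outside them. The *Gja5* window (GRCm38.p6, chr3:97032152-97032401, plus strand) has a GC content of 56.4% and the *Gja4* window (chr4:127314040-127314289, minus strand) of 61.2%. On GRCm39 the *Gja5* window lies at chr3:96939468-96939717, inside the gene span given above, so it precedes a start within the gene. Of the window bases, 7 for *Gja5* and 19 for *Gja4* lie in annotated exons. Capitals mark the motif letters given above.

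Gja5: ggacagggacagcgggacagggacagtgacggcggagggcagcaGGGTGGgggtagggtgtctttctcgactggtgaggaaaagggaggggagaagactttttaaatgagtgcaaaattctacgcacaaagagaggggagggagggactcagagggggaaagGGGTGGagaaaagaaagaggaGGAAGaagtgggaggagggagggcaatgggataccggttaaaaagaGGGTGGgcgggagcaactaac

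Gja4: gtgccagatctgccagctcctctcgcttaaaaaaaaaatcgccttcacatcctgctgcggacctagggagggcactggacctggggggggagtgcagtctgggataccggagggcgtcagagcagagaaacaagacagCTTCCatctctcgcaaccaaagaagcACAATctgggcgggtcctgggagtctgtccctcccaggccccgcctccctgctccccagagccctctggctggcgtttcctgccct

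In the *Gja5* window the ETS core began 67 bases before the start and the KLF core 206, 88 and 21 bases before it. The *Gja4* window held the ETS core at 112 and the SOX core at 86 bases before the start, and no KLF core. Neither held the RBPJ or TATA letters. These are matches of letters and say nothing of binding.

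In arterial cells *Gja5* stood at 548 CPM (520 to 577) in the Control and 541 CPM (510 to 573) in the AngII+HS library, a log2 ratio of -0.02 (-0.13 to 0.09). The next highest level among the named classes was in capillary cells, at 10.7 and 8.38 CPM, and T and B cells held 0 and 5 UMIs. A *Gja5* UMI was found in 77.2% (73.2 to 80.8) and 75.7% (71.1 to 79.9) of arterial cells, and in 37.3% and 38.2% at 1000 UMIs per cell. *Gja4* stood at 314 CPM (293 to 336) and 444 CPM (416 to 473) in arterial cells, 1.42-fold higher in the AngII+HS library (log2 ratio 0.50, 0.37 to 0.64) and so short of 1.5-fold. Its log2 ratio came to 0.26 without doublet removal and to 0.80 when the libraries were merged without integration, and 2 of 14 other settings put it past 1.5-fold. The share of arterial cells with a *Gja4* UMI was 61.1% (56.6 to 65.5) and 74.2% (69.5 to 78.4), and 27.7% and 35.6% at 1000 UMIs per cell. *Gja4* was low in capillary (6.12 and 16.8 CPM) and venous cells (2.27 and 4.01 CPM), and T and B cells held 0 and 2.57 CPM. Within arterial cells, at 1000 UMIs per cell, *Gja4* was seen in 27.5% of Control cells with a *Gja5* UMI and in 27.8% of those without, and in 36.4% and 35.1% in the AngII+HS library.

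The 3 arterial subclusters differed in their connexins. *Gja4* was higher in the AngII+HS library in the *Klk10*-led cells (388 and 625 CPM, log2 ratio 0.69, 0.51 to 0.87) and in the *Dkk2*-led cells (228 and 389 CPM, 0.77, 0.36 to 1.19), and in the *Gadd45b*-led cells the interval held 0 (260 and 298 CPM, 0.20, -0.05 to 0.44). *Gja5* gave 669 and 614 CPM in the *Klk10*-led, 466 and 469 CPM in the *Gadd45b*-led and 391 and 559 CPM in the *Dkk2*-led cells (0.52, 0.19 to 0.85). The numbers of cells were 303 and 200, 108 and 120, and 75 and 67.

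**Figure D2:**
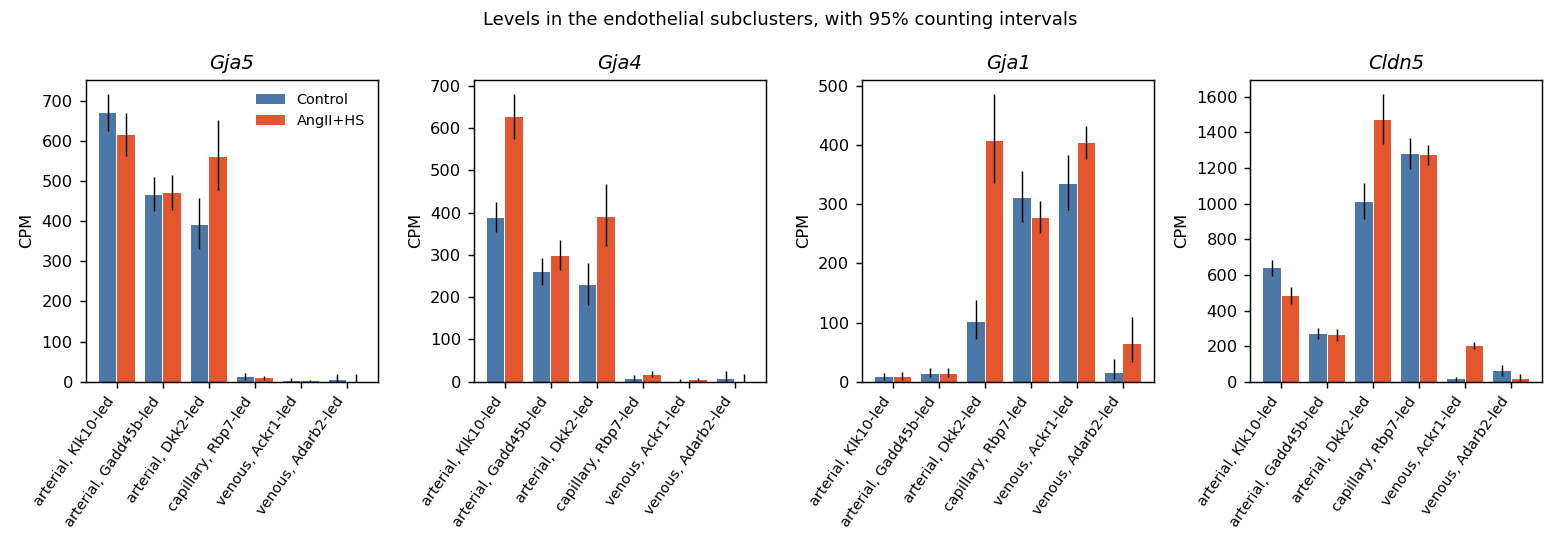
Level (CPM, bars from 0) of *Gja5*, *Gja4*, *Gja1* and *Cldn5* in the 6 named VEC subclusters, each called by a leading gene, in the Control (blue) and AngII+HS (orange) library; lines are 95% Poisson intervals for counting error. *Gja5* and *Gja4* are highest in the 3 arterial subclusters, and *Gja1* differs most in the *Dkk2*-led cells (101 and 406 CPM). *Cldn5* differs by the largest fold in the *Ackr1*-led cells (14.7 and 202 CPM). It is also lower in the *Klk10*-led (638 and 482 CPM) and higher in the *Dkk2*-led cells (1009 and 1470 CPM) of the AngII+HS library.

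*Gja1* (ENSMUSG00000050953, GRCm39 chr10:56253241-56278609, plus strand) showed the reverse distribution, with little in arterial cells and more in capillary and venous cells and LECs. In arterial cells it stood at 23.5 CPM (18.0 to 30.1) and 65.5 CPM (55.1 to 77.4), 2.79-fold higher in the AngII+HS library (log2 ratio 1.48, 1.04 to 1.94), and in venous cells at 236 CPM (205 to 270) and 372 CPM (347 to 398), 1.58-fold higher (0.66, 0.44 to 0.89). Capillary cells were nearly level, at 310 and 277 CPM (-0.16, -0.41 to 0.09). The share of venous cells with a *Gja1* UMI was 38.8% and 64.3%, and 15.2% and 30.7% at 1000 UMIs per cell, against 1.31% and 0.640% of T and B cells. In the arterial class the difference lay in the *Dkk2*-led cells, at 101 CPM (71.8 to 138) and 406 CPM (336 to 486), and not in the *Klk10*-led (7.44 and 8.08 CPM) or *Gadd45b*-led cells (13.4 and 13.5 CPM). The summed level of the arterial markers in the *Dkk2*-led cells was 16920 and 9151 CPM, and that of the capillary markers 119 and 583 CPM. These sums were not split by gene. At 1000 UMIs per cell, 35.3% of 17 AngII+HS arterial cells with a *Gja1* UMI held a capillary marker UMI, against 4.48% of 357 without. Their mean arterial marker UMIs were 7.71 and 18.95. In the Control library 0% of 10 cells with and 2.57% of 467 without held a capillary marker UMI, and the means were 14.2 and 18.97. The part of cells with a capillary profile in the arterial *Gja1* difference was not tested. When the libraries were merged without integration, the arterial log2 ratio came to 0.70, and when the T and B cell level was subtracted, to 2.02. In venous cells the *Ackr1*-led subcluster gave 334 and 403 CPM (0.27, 0.05 to 0.50), short of 1.5-fold, and the *Adarb2*-led one 14.7 CPM (4 UMIs) and 63.9 CPM (13 UMIs). The *Ackr1*-led cells, which held 204 of 208 and 821 of 834 venous *Gja1* UMIs, were 96 of 165 venous cells in the Control and 262 of 342 in the AngII+HS library, and the log2 ratio within them was smaller than over all venous cells.

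*Gjc1* (ENSMUSG00000034520, GRCm39 chr11:102686879-102710532, minus strand) was at similar levels in the 3 VEC subtypes, at 61.7 and 42.4 CPM in arterial, 58.1 and 52.8 CPM in capillary and 55.5 and 51.3 CPM in venous cells. Its arterial log2 ratio was -0.54 (-0.93 to -0.16), and the other intervals held 0. Among arterial subclusters the *Gadd45b*-led cells gave 80.5 and 41.6 CPM (-0.95, -1.53 to -0.39), and the intervals of the *Klk10*-led (48.8 and 38.1 CPM) and *Dkk2*-led cells (51.8 and 58.0 CPM) held 0. As a share of the UMIs of the 4 connexins, *Gja5* made up 57.9% of 2499 UMIs in Control and 49.5% of 2318 UMIs in AngII+HS arterial cells, and *Gja4* 33.1% and 40.6%. *Gja1* made up 80.6% and 78.04% in capillary cells, 79.7% and 86.9% in venous cells and 75.7% and 78.4% in LECs. The gene with the most connexin UMIs was the same in both libraries in each of these 4 classes, but in the *Klk10*-led arterial cells *Gja5* gave 809 and *Gja4* 469 UMIs in the Control and 532 and 542 UMIs in the AngII+HS library.

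**Figure D3:**
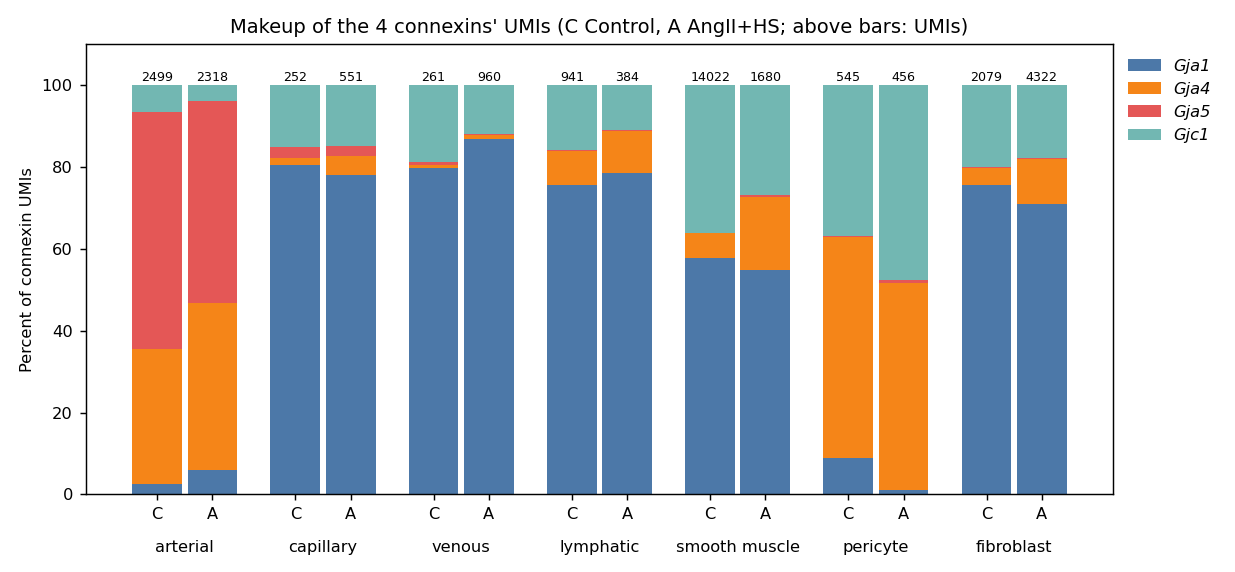
Makeup of the UMIs of *Gja1*, *Gja4*, *Gja5* and *Gjc1* (percent of their sum, which is printed above each bar) in 7 cell classes of the Control (C) and AngII+HS (A) library. *Gja5* and *Gja4* make up most of the arterial bars, *Gja1* most of the capillary, venous, lymphatic and fibroblast bars, and *Gja4* and *Gjc1* most of the pericyte bars.

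When all VECs were pooled, 1 of the 10 genes was past 1.5-fold higher in the AngII+HS library (*Gja1*, 117 and 242 CPM) and 2 were past it lower (*Ocln*, 30.01 and 13.4 CPM, and *Gja5*, 338 and 188 CPM). Over all 10830 genes with at least 50 UMIs in VECs, 15.1% were past 1.5-fold higher and 11.6% lower, 26.7% in either direction, so the counts of 1 and 2 of 10 are near the background. The median log2 ratio of the 10 genes was -0.23, against 0.05 over all genes tested. The makeup of the pooled VECs differed, however, with arterial cells giving 63.2% of the subtypes' UMIs in the Control and 35.9% in the AngII+HS library, capillary cells 15.7% and 26.2%, and venous cells 21.1% and 37.9%. The comparison was therefore repeated, after the data had been seen, with the subtype levels of both libraries weighted by the Control makeup.

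At the Control makeup none of the 10 genes was past 1.5-fold, and their median log2 ratio was -0.015. *Gja5* moved from a pooled log2 ratio of -0.83 to -0.02 and *Ocln* from -1.15 to -0.43. *Gja4* turned from -0.27 to 0.51, so that it was lower in pooled VECs while it was higher in the arterial cells that held most of it. *Gja1* moved from 1.07 to 0.53. *Tjp1* went from -0.40 to -0.52, *Gjc1* from -0.30 to -0.38, and *Esam* (0.19 and 0.19), *F11r* (-0.22 and -0.19), *Cldn5* (0.10 and 0.04) and *Cdh5* (0.13 and -0.01) moved little. Applying the AngII+HS makeup to the Control levels alone gave -0.80 for *Gja5*, -0.80 for *Gja4*, -0.70 for *Ocln* and 0.66 for *Gja1*. Whether the share of arterial cells differed in the tissue or in what was dissociated cannot be told apart.

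**Figure D4:**
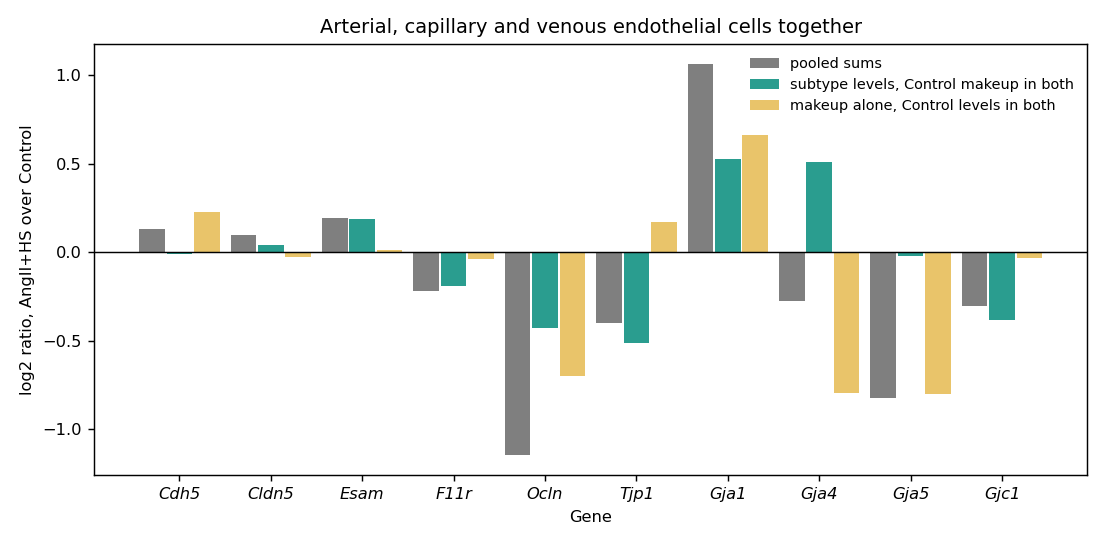
Log2 ratio of AngII+HS over Control for each gene in arterial, capillary and venous cells together: from pooled sums (grey), with subtype levels at the Control makeup in both libraries (green), and for the difference in makeup alone at Control levels (yellow). The grey bar of *Gja5* (-0.83) shrinks to -0.02 in green, and that of *Gja4* turns from -0.27 to 0.51.

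Within single subtypes, few members passed 1.5-fold. In arterial cells 1 of 10 tested was higher (*Gja1*) and 0 lower, where 11.4% of 8547 genes were higher and 9.28% lower (20.7% in either direction). In capillary cells 0 of 7 were higher, against 16.3% of all genes, and 1 was lower (*Tjp1*), against 11.5% (27.8% in either direction). In venous cells 2 of 7 were higher (*Cldn5* and *Gja1*), against 26.5% of all genes, and 0 lower, against 14.3% (40.8% in either direction). With so few members, these shares are near those of all genes. Summed markers of other cells also differed between the libraries: neutrophil markers stood at 11.5 and 196 CPM in VECs, fibroblast markers at 329 and 861 CPM in arterial cells, and erythroid markers at 30.6 and 1971 CPM in capillary cells. In T and B cells the neutrophil markers stood at 14.5 and 241 CPM, the fibroblast markers at 127 and 704 CPM and the erythroid markers at 33.2 and 70.0 CPM. The part of RNA from other cells in the values above was not tested. No marker of those 3 lists was at 0 in the AngII+HS VECs, and 1 of 6 neutrophil markers (*Cxcr2*) and 1 of 5 erythroid markers (*Alas2*) were at 0 in the Control VECs.

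**Figure D5:**
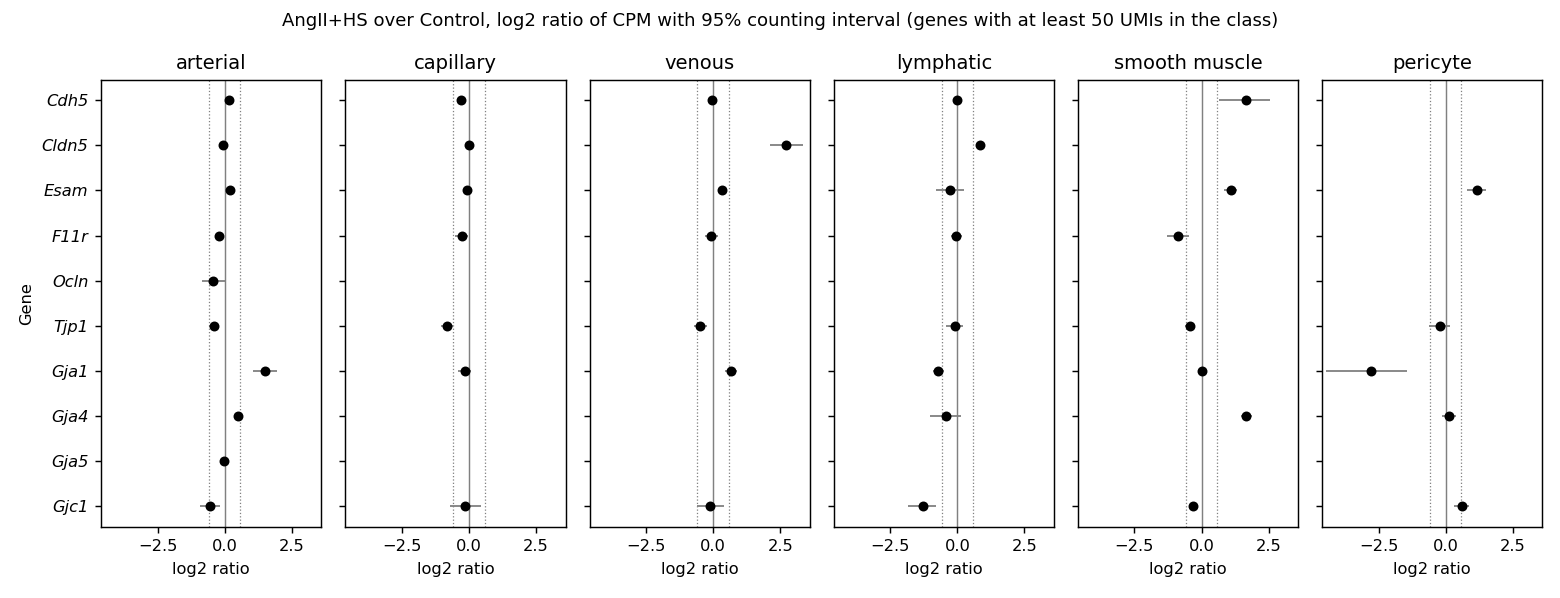
Log2 ratio of AngII+HS over Control (points, with 95% counting intervals) for the members with at least 50 UMIs in each of 6 cell classes; dotted lines mark 1.5-fold. *Cldn5* in venous cells and LECs, *Gja1* in arterial cells and *Gja4* in VSMCs lie to the right, *Gja1* in LECs and pericytes and *Gjc1* in LECs to the left, and *Tjp1* lies left of 0 in each panel.

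LECs, whose cell contacts include button-like junctions rich in VE-cadherin and claudin-5, gave 1 member past 1.5-fold higher of 8 tested (*Cldn5*), against 16.2% of 5811 genes, and 2 lower, against 9.4% (25.6% in either direction). The 2 were *Gja1*, at 576 CPM (534.5 to 620) and 353 CPM (314 to 395), and *Gjc1*, at 121 CPM (102 to 142) and 49.25 CPM (35.5 to 66.6). The *Gjc1* difference, 2.45-fold, was past 1.5-fold under each setting tried. The *Gja1* difference was 1.63-fold, and its log2 ratio came to -0.37 with equal weight per cell and -0.19 at 1000 UMIs per cell. *Gja4* stood at 63.1 and 46.9 CPM in LECs (-0.43, -1.02 to 0.14), above the T and B cell level, and *Gja5* at 2 and 1 UMIs. The intervals of *Cdh5*, *F11r*, *Tjp1* and *Esam* held 0 in LECs. The summed LEC markers stood at 8389 and 14050 CPM in these cells, and platelet markers at 12.1 and 155 CPM. These sums hide differences between their genes. *Ccl21a* stood at 3031 and 7511 CPM and *Lyve1* at 1045 and 1793 CPM, whereas *Prox1* (894 and 885 CPM), *Mmrn1* (1885 and 2016 CPM) and *Reln* (867 and 892 CPM) were nearly level. The platelet sum was mostly *Itga2b* (2.43 and 93.8 CPM) and *Pf4* (7.28 and 56.3 CPM), and *Gp9* and *Gp1bb* were at 0 in the AngII+HS LECs. TMM scaling moved the median of all genes in LECs by -0.13 and the higher share of genes past 1.5-fold from 63.3% to 45.1%.

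In mural cells *Gja4* and *Esam* stood out. In VSMCs *Gja4* stood at 19.6 CPM (18.3 to 21.0) in the Control and 62.6 CPM (55.7 to 70.0) in the AngII+HS library, 3.19-fold higher (log2 ratio 1.67, 1.48 to 1.87). It was higher in each of the 4 named VSMC subclusters, led by *Ptgs2* (13.2 and 64.1 CPM), *Rbp4* (16.1 and 54.8 CPM), *Actn2* (9.51 and 52.6 CPM) and *Fgf14* (47.7 and 107 CPM). The largest unnamed subcluster (651 and 39 cells), left out of VSMCs, gave 21.5 and 47.7 CPM. A *Gja4* UMI was found in 14.6% of Control and 35.1% of AngII+HS VSMCs, and in 2.12% and 4.87% at 1000 UMIs per cell. *Esam* gave 16.2 and 34.4 CPM in VSMCs (1.09, 0.84 to 1.33), but its log2 ratio was 0.21 when the libraries were merged without integration and 0.26 when more doublets were removed (an assumed rate 2 times as high). *F11r* was lower, at 19.2 and 10.6 CPM (-0.86, -1.30 to -0.45), and came to -0.36 under the second of these settings. *Gja1*, which gave the most connexin UMIs in VSMCs, was level at 186 CPM (182 to 190) and 190 CPM (178 to 203), and *Gjc1* gave 117 and 93.6 CPM (-0.32, -0.46 to -0.18). In all, 3 of 7 members were past 1.5-fold higher in VSMCs, where 9.37% of 12950 genes were, and 1 was lower, against 18.5% (27.9% in either direction). The third, *Cdh5*, was below the T and B cell level in both libraries and turned to -0.155 at 1000 UMIs per cell. Summed pericyte markers were 5542 and 6321 CPM and VEC markers 478 and 552 CPM in VSMCs. Most of this pericyte sum was *Rgs5*, at 5246 and 6113 CPM, which was lower in pericyte-like cells (1486 and 3577 CPM). *Notch3* stood at 55.9 and 47.2 CPM in VSMCs, and at 589 and 1150 CPM in pericyte-like cells. The pericyte sum is thus not particular to pericyte-like cells. At 1000 UMIs per cell 36.0% of 25 AngII+HS VSMCs with a *Gja4* UMI held a VEC marker UMI, against 37.3% of 488 without. The same AngII+HS cells with a *Gja4* UMI held a mean of 7.88 pericyte marker UMIs, against 6.97 in those without. In the Control library these means were 6.39 and 5.49. The part of cells with pericyte or VEC markers in the VSMC *Gja4* difference was not tested.

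In pericyte-like cells most connexin UMIs were of *Gja4* and *Gjc1*. *Gja4* stood at 192 and 210 CPM (0.13, -0.13 to 0.38) and *Gjc1* at 131 CPM (113 to 150) and 198 CPM (172 to 226), 1.51-fold higher and at the edge of the 1.5-fold mark, since 7 of 14 other settings put it below. *Gja1* was lower, at 31.2 CPM (48 UMIs) and 4.56 CPM (5 UMIs), a log2 ratio of -2.78 that came to -1.26 with finer second clustering. The AngII+HS value lay below the T and B cell level, so the size of this ratio is uncertain. T and B cells held 15.6 and 15.0 CPM of the 4 connexins together, of which *Gja1* made up 60.0% and 55.3%. *Esam* was higher, at 72.8 CPM (59.9 to 87.6) and 161 CPM (138 to 187). *Esam* and *Gja1* kept these directions in both pericyte subclusters. The *Pln*-led cells gave 70.15 and 171.5 CPM of *Esam* and 32.3 and 6.35 CPM of *Gja1* (40 and 4 UMIs). The *Csmd1*-led cells gave 83.7 and 147 CPM of *Esam* and 26.8 and 2.14 CPM of *Gja1* (8 and 1 UMIs). So 2 of 5 members tested were past 1.5-fold higher, against 16.7% of 6570 genes, and 1 lower, against 10.6% (27.4% in either direction). The summed VEC markers in pericytes were 715 and 3219 CPM and the pericyte markers 2323 and 5364 CPM. Most of the VEC sum was *Fabp4*, at 639.5 and 3014 CPM. Of the other VEC markers, *Flt1* (22.75 and 112 CPM) and *Emcn* (1.30 and 34.6 CPM) were among the higher ones. *Pecam1* (43.5 and 39.2 CPM), *Kdr* (1.30 and 0.911 CPM) and *Mmrn2* (3.90 and 1.82 CPM) were lower. The VSMC markers were 30270 and 20250 CPM in pericytes, 31000 and 24490 CPM in the *Pln*-led cells and 27240 and 14550 CPM in the *Csmd1*-led cells. VSMCs themselves held 29530 and 42160 CPM of VSMC markers and 5542 and 6321 CPM of pericyte markers. In the Control library these sums therefore did not set pericyte-like cells apart from VSMCs, and single pericyte markers were divided. *Notch3* (589 CPM, against 55.9 CPM in VSMCs), *Higd1b*, *Cox4i2* and *Vtn* were higher in Control pericyte-like cells. *Rgs5* (1486 CPM, against 5246 CPM in VSMCs), *Abcc9* (151 against 211 CPM) and *Kcnj8* (21.45 against 24.1 CPM) were lower there. The part of cells with VEC, pericyte or VSMC markers in the *Esam* and *Gja1* differences was not tested. The endothelial genes *Cdh5* and *Cldn5* stood at 5.47 and 6.38 CPM in the AngII+HS pericytes, near the T and B cell level. TMM scaling moved the median of all genes by -0.12 here and the higher share of genes past 1.5-fold from 61.1% to 47.4%.

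Fibroblasts carried *Gja1* (174 and 113 CPM, log2 ratio -0.62, -0.71 to -0.53) and *Gjc1* (46.4 and 28.5 CPM, -0.70, -0.88 to -0.53) at lower levels in the AngII+HS library, and *Gja4* at a higher one (9.63 and 17.8 CPM, 0.88, 0.55 to 1.23). The summed pericyte markers in fibroblasts were 518 and 1003 CPM and the VEC markers 231 and 259.5 CPM. At 1000 UMIs per cell, 71 AngII+HS fibroblasts with a *Gja4* UMI held a mean of 1.72 pericyte marker UMIs, against 1.01 in those without, and 31.0% held a VEC marker UMI, against 20.5%. The Control library went the other way. Its 15 fibroblasts with a *Gja4* UMI held a mean of 0.267 pericyte marker UMIs, against 0.488 in those without, and 6.67% held a VEC marker UMI, against 16.05%. The part of cells with pericyte or VEC markers in the *Gja4* difference was not tested. Of 8 members tested, 2 were past 1.5-fold higher, against 10.8% of 13467 genes, and 2 lower, against 17.6% (28.3% in either direction). The other higher one, *Cldn5*, stood at 0.775 and 2.74 CPM, below the T and B cell level. TMM scaling moved the median of all genes in fibroblasts by 0.23, the higher share of genes past 1.5-fold from 38.0% to 62.8%, and *Gja1* and *Gjc1* to -0.39 and -0.47, short of 1.5-fold. Macrophages carried *F11r* at 12.4 CPM (7.86 to 18.6) and 48.6 CPM (44.7 to 52.9), 3.92-fold higher, and dendritic cells at 48.4 and 51.6 CPM. An unnamed cluster led by *Arg1* and *Ccl24* (40 and 2065 cells) went the other way, with *F11r* at 40.2 CPM (13 UMIs) and 19.97 CPM (169 UMIs), a log2 ratio of -1.01 (-1.82 to -0.07). Of 4 members tested in macrophages 2 were past 1.5-fold higher, against 24.3% of 10390 genes, and 0 lower, against 23.5% (47.8% in either direction), and the other one, *Cdh5*, was at the free RNA level (3.77 and 7.41 CPM). TMM scaling moved the macrophage median by 0.26 and the higher share from 50.9% to 69.1%. In neural cells *Gjc1* stood at 38.2 and 66.2 CPM (0.79, 0.04 to 1.62).

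Of 82 other junction genes, 46 had at least 50 UMIs in VECs, and 5 of these (10.9%) were past 1.5-fold higher and 11 (23.9%) lower, with a median log2 ratio of -0.14. Over all genes tested in VECs, 15.1% were higher and 11.6% lower, with a median of 0.05. At the Control makeup the counts were 3 higher and 7 lower, of which 3 and 4 were also past it in pooled VECs. No share over all genes was computed at that makeup. Adherens junction genes gave 0 higher and 1 lower of 11: *Nectin1*, a nectin, at 56.8 and 20.4 CPM (log2 ratio -1.48), with *Ctnnb1*, which encodes β-catenin, as the gene of most UMIs in the list at 435 and 409 CPM. Tight junction genes gave 2 higher and 3 lower of 14. The lower ones were *Cgnl1*, encoding paracingulin (339 and 127 CPM, -1.42), *Pard3*, a polarity scaffold (83.1 and 39.0 CPM, -1.09), and *Marveld1* (156 and 81.4 CPM, -0.94), and the higher ones *Magi1*, a scaffold and the gene of most UMIs in the list (348 and 644 CPM, 0.89), and *Patj* (4.16 and 6.47 CPM). In venous cells *Pard3* stood at 77.0 and 5.80 CPM and *Cgnl1* at 144 and 33.0 CPM. Of 19 further connexins and pannexins only *Panx1*, a pannexin channel, had enough UMIs, at 5.08 and 8.25 CPM.

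Genes of endothelial contacts gave 2 higher and 7 lower of 20. *Emcn*, which encodes the sialomucin endomucin, stood at 317 and 802 CPM in VECs (log2 ratio 1.34) and at 72.3 and 671 CPM in arterial cells, and *Mcam*, the adhesion molecule CD146, at 89.4 and 210 CPM (1.24), higher in each of the 3 subtypes by 1.10 to 1.33 on the log2 scale. Lower were *Ptprb*, the phosphatase VE-PTP that binds VE-cadherin (2336 and 1182 CPM, -0.98), *Ceacam1* (85.0 and 45.5 CPM, -0.90), *Icam2* (254 and 152 CPM, -0.74) and *Amotl2*, encoding an angiomotin-like protein at VE-cadherin junctions (120 and 71.85 CPM, -0.74), with *Pecam1* as the gene of most UMIs in the list (3041 and 1938 CPM, -0.65). At the Control makeup *Emcn* (1.25), *Mcam* (1.18), *Nectin1* (-0.97), *Cgnl1* (-0.74), *Ptprb* (-0.64), *Ceacam1* (-1.09) and *Patj* (0.98) stayed past 1.5-fold. Short of it were *Pard3* (-0.38), *Marveld1* (-0.53), *Magi1* (0.405), *Panx1* (0.48), *Icam2* (-0.41), *Amotl2* (-0.40) and *Pecam1* (-0.37). *Pecam1*, *Ptprb* and *Emcn* are also among the markers by which VECs were named.

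The genes most like each member over 29 profiles (15 named classes in the libraries that hold them) were found by Pearson's r of log2(CPM + 5), as a description, since the profiles share libraries and depth. *Cdh5* was followed most closely by *Tie1* (0.99), *Adcy4* and *Ccm2l* (0.99 each), *Cldn5* by *Bcl6b*, *Podxl* and *Nova2* (0.96 each), *Esam* by *C130074G19Rik*, *Gm57038* and *Adgrf5* (0.92 to 0.93), and *F11r* by *Nova2*, *Dll4* and *Tie1* (0.905 to 0.918). *Ocln* was close to *Adh7* and *Gkn3* (0.91 each), and *Tjp1* to *Cdc42ep1*, *Bcar1* and *Prkd1* (0.955 to 0.967). For the connexins the nearest genes were *Mannr*, *Gm48898* and *4930573H18Rik* for *Gja5* (0.96 to 0.97), *Parm1*, *Mical2* and *Arhgap44* for *Gja4* (0.84 to 0.87), *Adarb1*, *Npr2* and *Ptprk* for *Gja1* (0.85 to 0.86), and *Adamts1*, *Fermt2* and *Nedd4* for *Gjc1* (0.94 to 0.96). Among the 10 genes themselves the profiles were closest for *Cdh5* and *Cldn5* (0.95), *Cdh5* and *F11r* (0.90), *Cldn5* and *F11r* (0.87), *Tjp1* and *Gjc1* (0.86) and *Ocln* and *Gja5* (0.86), and least alike for *Gja1* with *Ocln* (0.06) and with *Gja5* (0.07).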

How the data were processed

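The authors deposited 1 matrix of UMI counts per library, whole numbers for 33696 genes in each barcode, made with Cell Ranger (version 8.0.1 in the matrix header, build mm10 in the submitters' processing notes). Counts were not normalised before deposit. Gene positions were taken from the GENCODE annotation of GRCm39 by gene ID, and promoter windows from RefSeq on GRCm38.p6. The 10 members and all gene and marker lists were chosen with earlier results of these data known.

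Cells were kept from 500 UMIs and 200 genes upwards with a mitochondrial share below 20%, and doublets were removed by Scrublet score (scanpy 1.11.5) at 0.8% per 1000 cells. Libraries were integrated and clustered with Seurat 5.3.0 (2000 variable genes without the junction genes, 30 components, resolution 0.8), and endothelial and mural cells were clustered again (20 components, resolution 0.4). A cluster was named only with at least 3 of its markers detected. It got no name where another class had at least 1 marker, and no fewer than its own, among its 10 leading genes. Clusters of low depth with none of their own markers among these genes got no name either. Outside mural cells a name also needed a positive marker score. Mural subclusters without one were taken as VSMCs by default, unless another rule left them unnamed. The *Ptgs2*-led (score -0.299) and *Actn2*-led cells (-0.057) were named in this way. Counts were summed per class and library and divided by the class total. Poisson, Clopper-Pearson and binomial intervals were computed with scipy 1.17.1 in Python 3.11.15. Genes with at least 50 UMIs in a class were compared, with 0.5 UMIs added for counts and medians. Named genes were the 10 members, up to 8 wider junction genes in each direction by log2 ratio, the gene of most UMIs in each list, and the 3 most alike genes per member, of which 1 is not reported here. edgeR 4.0.16 was used for TMM factors alone, as an alternative. Scripts were tested on simulated data. No test between conditions was run, since each had 1 library.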

Additional observations from a re-analysis of the deposited data

Results flagged for a closer look

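Members that were past 1.5-fold in opposite directions in different cell classes are given here, and in no case was the difference between classes tested, since there was 1 library per condition. *F11r* had a log2 ratio of AngII+HS over Control of -0.861 in VSMCs and 1.971 in macrophages. *Gja1* had a log2 ratio of 1.481 in arterial and 0.659 in venous cells, against -0.707 in LECs, -2.776 in pericytes and -0.617 in fibroblasts. The AngII+HS pericyte level behind the *Gja1* ratio lay below the T and B cell level. *Gjc1* had a log2 ratio of 0.598 in pericytes, against -1.291 in LECs and -0.701 in fibroblasts.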

How the results depend on the processing

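No paired analysis was possible because each condition had 1 library and no replicate numbers, and for the same reason no library could be left out. The intervals reflect counting error alone, and the spread between mice is unknown. The median log2 ratio of the 10 members in VECs (-0.233) lay between -0.313 and -0.138 under 16 other settings. With the subtype makeup of the Control library, a setting chosen after seeing the data, it was -0.015, and 0 members were past 1.5-fold higher and 0 lower. At a fold of 2, 1 member was lower in VECs, and with at least 200 UMIs 3 wider junction genes were higher. Shares over all genes were not computed for the Control makeup, the fold of 2 or the 200 UMIs. Of 23 differences past 1.5-fold over 9 classes, 22 kept their direction and 13 stayed past 1.5-fold under each setting that gave a ratio, other than the Control makeup. Such settings numbered 12 to 14 per difference, since a setting with a level of 0 or too few UMIs gave none. At the Control makeup 3 of these 13, all in VECs, fell short: *Ocln* (-0.429), *Gja1* (0.529) and *Gja5* (-0.021). *Cdh5* in VSMCs reversed to -0.155 with cells thinned to 1000 UMIs. Others that fell short of 1.5-fold under at least 1 setting were *Cldn5* in LECs (lowest 0.416), *Gja1* in LECs (-0.193), *Esam* (0.208) and *F11r* (-0.364) in VSMCs, *Gjc1* in pericytes (0.337), *Gja1* (-0.388), *Gjc1* (-0.473) and *Gja4* (0.562) in fibroblasts, and *Cdh5* in macrophages (0.194). Thinning lowered the share of cells with a UMI by construction. The cause of the other shifts was not tested.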

Other observations

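Outside the 10 genes, *Gjb5*, which encodes a connexin, stood at 1.55 CPM in Control and 9.22 CPM in AngII+HS fibroblasts (log2 ratio 2.57, 1.80 to 3.47), and was chosen after its values were seen. *Panx1* stood at 40.6 and 44.9 CPM there, and its interval (-0.03 to 0.32) held 0. The fibroblast class comprised 4 clusters, of which 1 held 0 Control and 165 AngII+HS cells, and the part of that cluster in these values was not tested.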
